A study of Mus musculus with 31 samples.

Results

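Cytokine receptor chains, with those of the interleukin-3 (IL-3) receptor first, were followed in Ba/F3 cells that carry the RPL10 R98S mutation. The 10 genes were Il3ra, Csf2rb, Csf2rb2, Csf2ra, Il2rg, Il4ra, Il7r, Il10ra, Il21r and Ifngr1, taken by symbol out of 41255 gene symbols listed in both tables of normalised counts. Ba/F3 is an established mouse line, labelled lymphoid, that needs IL-3 to grow and survive. Every clone carried a retrovirally delivered human RPL10 cDNA, either WT or R98S, and in every clone the endogenous Rpl10 was knocked down by shRNA. Each genotype was represented by 3 cultures grown out from single cells, R98S clones 11, 13 and 35 and WT clones 28, 29 and 36, sampled under replicate numbers 1 to 3. Total mRNA gave 9 R98S and 8 WT libraries, with none for WT clone 36 number 1. The study left that library out because it clustered with R98S in a principal component analysis. The WT total mRNA group thus lacks a library that resembled R98S, and the effect on the differences was not tested. Polysomal RNA, pooled from gradient fractions holding at least 2 ribosomes per mRNA, gave 8 R98S and 6 WT libraries, each from a culture that also had a total mRNA library. WT clone 36 had polysomal RNA of number 3 alone, and R98S clone 11 number 2 and WT clone 28 number 1 had none. The p-values rest on libraries that share 3 clones per genotype, so they measure the spread between libraries and only in part that between clones.

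Cytokine receptors of this class have no kinase domain of their own. A ligand-binding chain pairs with a signal-transducing chain, the bound JAK kinases phosphorylate one another and the receptor, and STAT factors are recruited. For IL-3 the ligand-binding chain is encoded by Il3ra. Mice have a pair of beta chains, one encoded by Csf2rb and shared with the receptors for IL-5 and GM-CSF, the other encoded by Csf2rb2 and used with IL-3 alone. Csf2ra encodes the GM-CSF ligand-binding chain, and Il2rg encodes the common gamma chain that works with Il4ra, Il7r and Il21r.

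Recovered read totals ran from 8831180 to 22059792 per library. Rpl10, the gene knocked down in all clones, had medians of 1222 normalised counts in R98S and 1352 in WT total mRNA, with overlapping ranges. In polysomal RNA its medians were 1117 in R98S and 2719 in WT, again with overlapping ranges. Rpl10 cannot test the genotype labels because both genotypes carry the knockdown. Against the lymphoid label, 2 of 11 B lymphoid markers (Cd79a and Cd79b) reached a mean of 10 normalised counts in either table, while Pax5, Ebf1 and Rag1 did not exceed 1.00 normalised counts in any library. Of these 2, Cd79b was higher in R98S, at log2 differences of 0.87 (adjusted p = 0.00667) in total mRNA and 1.49 (adjusted p = 0.0228) in polysomal RNA, and Cd79a differed by 0.14 (adjusted p = 0.384) and 0.18 (adjusted p = 0.811), beside 30.3% and 13.5% of all genes called. Of 14 myeloid and mast cell markers 8 reached it, among them Gata2 with a median of 21576 in WT total mRNA. The summed myeloid and mast cell markers ran from 14649 to 81521 normalised counts in R98S and from 19184 to 38921 in WT total mRNA, and from 11670 to 36248 and from 9125 to 33167 in polysomal RNA, and their part in the receptor differences was not tested. Of the 8 tested, 4 were higher and 1 lower in R98S total mRNA, beside 30.3% of all genes, and 2 were higher and 1 lower in polysomal RNA, beside 13.5%. The lower one was Lyz2 in both. In polysomal RNA it reached the mean of 10 through WT alone, its R98S libraries not exceeding 7.15. In total mRNA its R98S median was 3.58, beside 52.6 in WT, with R98S libraries of up to 55.7. The counts that hold Lyz2 are no support for a difference. The mast cell protease gene Cma1 was singled out after its values were seen. In R98S total mRNA it had the widest range of this list in normalised counts, at 303 to 56111, beside 559 to 9830 in WT. Of 10 T lymphoid markers 3 reached the mean of 10 in total mRNA, with 1 higher and 1 lower in R98S, and 2 in polysomal RNA, both higher, where 13.5% of all genes were called. Cd3g had an R98S median of 4.46 in total mRNA and Cd3d a WT median of 8.95 in polysomal RNA. Each thus reached that mean mainly through the other genotype, so these counts are no support for a difference. Their sums were small, at 84.1 to 157 normalised counts in R98S and 48.3 to 255 in WT total mRNA, and 86.9 to 363 and 37.7 to 77.9 in polysomal RNA. Of 10 erythroid and megakaryocyte markers 6 reached it in total mRNA, with 1 lower in R98S (4 lower under the replicate block, beside 38.4% of all genes), and 4 in polysomal RNA, with 1 lower. Their sums were 8991 to 12908 normalised counts in R98S and 10119 to 18203 in WT total mRNA, and 4688 to 7762 and 5074 to 10058 in polysomal RNA. The part of these lists in the receptor differences was not tested either. In RNA from bulk cultures, fewer cells of a type and less RNA per cell cannot be told apart.

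Of the 10 receptor genes, 8 reached a mean of 10 normalised counts in both tables and were tested. Per kilobase of exon the beta chains stood far above every other chain. In WT total mRNA the median was 6393 normalised counts per kb for Csf2rb2 and 5656 for Csf2rb, with ranges that overlapped each other and lay apart from the next gene. The chains below them followed at 219 per kb for Il2rg, 208 for Il3ra, 170 for Il4ra, 140 for Ifngr1 and 101 for Il10ra, each overlapping its neighbour in range. Il21r came last at 3.52 per kb, its range of 2.58 to 16.2 lying below that of Il10ra. In R98S total mRNA the order was Csf2rb2 at 15793, Csf2rb at 13154, Il3ra at 249, Ifngr1 at 221, Il2rg at 204, Il4ra at 170, Il10ra at 24.0 and Il21r at 9.77 per kb, and there only the step from the beta chains to Il3ra separated the ranges. In polysomal RNA the beta chains again stood apart from the rest in both genotypes, at 2934 (Csf2rb) and 2637 (Csf2rb2) per kb in WT and at 9145 (Csf2rb2) and 8939 (Csf2rb) per kb in R98S. Below them, polysomal medians in WT ran from 143 per kb for Il2rg, 126 for Ifngr1, 114 for Il4ra and 102 for Il3ra down to 11.4 for Il10ra, neighbours overlapping throughout, and then to 2.36 for Il21r, whose range lay apart. In R98S polysomal RNA they were 213 for Il2rg, 145 for Il3ra, 135 for Il4ra and 135 for Ifngr1, and then, below a gap between ranges, 38.4 for Il10ra and 10.1 for Il21r. Which of the beta chains came first depended on the length used, since Csf2rb stood at 8400.2 per kb in WT total mRNA when its longest transcript replaced all of its exons.

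**Figure D1:**
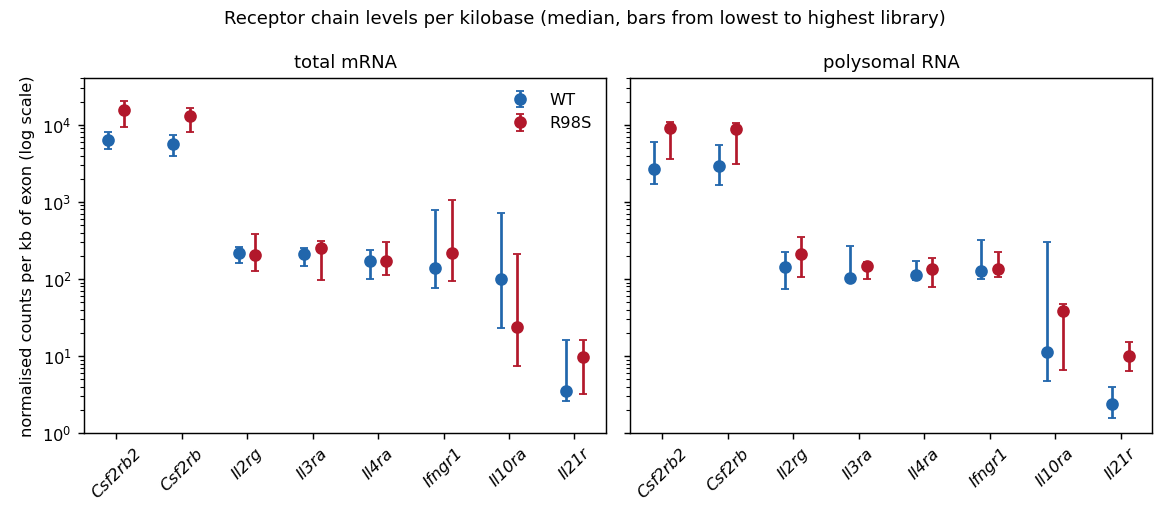
Level of the 8 detected receptor chains in normalised counts per kilobase of exon (log scale), in total mRNA (left) and polysomal RNA (right); points are medians and bars run from the lowest to the highest library, WT in blue and R98S in red. The beta chains lie at or above 1660.0 per kb in every group, while no library of any other chain exceeds 1050 per kb.

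Csf2ra and Il7r were at or near 0. Il7r, the ligand-binding chain for IL-7, had no read in any of the 31 libraries. Csf2ra had 1 read, in WT clone 28 number 1 of total mRNA, and none elsewhere. A count of 0 allows up to 3 reads in a library, which amounts to between 1.81 and 5.14 normalised counts depending on the library and covers counting error only. No fold is given for these genes.

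The beta chain genes are near-identical neighbours on chromosome 15, Csf2rb (ENSMUSG00000071713) at chr15:78325752-78353847 on the plus strand and Csf2rb2 (ENSMUSG00000071714) at chr15:78282507-78305721 on the minus strand (GRCm38). In an alignment of their longest coding sequences, of 2688 and 2634 bases, 95.2% of the ungapped positions were identical, with 125 substitutions and 5 gaps. Of all 50-base windows of their annotated transcripts, 12.3% of those of Csf2rb and 18.9% of those of Csf2rb2 occur unchanged in transcripts of another gene, mainly of the other beta chain. Reads from such windows can be lost or assigned to the wrong copy, so the split between the copies is uncertain. To show where reads can tell the copies apart, the 150 coding bases with the most differences are given, from base 300 of the Csf2rb coding sequence (chr15:78338889-78340492) and base 303 of that of Csf2rb2 (chr15:78292817-78294442), each spanning an intron. Capitals mark the 25 bases that differ.
Csf2rb: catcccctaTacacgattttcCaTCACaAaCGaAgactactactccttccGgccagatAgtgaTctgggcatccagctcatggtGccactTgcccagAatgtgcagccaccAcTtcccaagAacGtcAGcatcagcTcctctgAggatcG
Csf2rb2: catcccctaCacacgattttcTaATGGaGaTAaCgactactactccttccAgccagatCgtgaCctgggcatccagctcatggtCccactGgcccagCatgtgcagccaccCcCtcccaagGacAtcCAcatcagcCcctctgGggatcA
To show where they cannot, the first 150 bases of the longest identical run, which has 242 bases, are given from coding base 2083 of either gene, at chr15:78348577-78348726 in Csf2rb and chr15:78284722-78284871 in Csf2rb2.
Csf2rb and Csf2rb2: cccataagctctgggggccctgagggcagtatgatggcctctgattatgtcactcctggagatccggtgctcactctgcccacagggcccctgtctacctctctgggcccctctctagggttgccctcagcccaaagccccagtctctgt

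The genotypes were compared first in total mRNA, to ask whether the receptor chains differ in transcript level between R98S and WT clones. Csf2rb and Csf2rb2 were higher in R98S and Il10ra was lower, so that 3 of 8 tested chains passed an adjusted p of 0.1, beside 30.3% of all 11133 genes tested. The share of chains called was thus near that of all genes. The median log2 difference over the 8 chains was 0.44, beside 0.0035 over all genes.

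Csf2rb had 59641, 95722 and 119310 normalised counts (lowest, median, highest of 9) in R98S total mRNA and 28599, 41161 and 54062 (of 8) in WT. Every R98S library was thus above every WT library that the study kept. The means were 94858 ± 20069 (SD, n = 9) and 41121 ± 8256 (SD, n = 8), and the log2 difference was 1.20 ± 0.15 (SE), a 2.30-fold higher level in R98S with an adjusted p of 1.78e-05. Csf2rb2 had 44593, 74860 and 97783 normalised counts in R98S and 23000, 30302 and 37815 in WT, again with no overlap between libraries. Its log2 difference was 1.20 ± 0.15 (SE) with an adjusted p of 1.65e-05. Since the copies share reads, these are not independent results, and with their counts summed the log2 difference was 1.20 with an adjusted p of 1.83e-05. All libraries of the genotypes lay apart for these 2 of the 8 chains, beside 3.53% of all genes tested. The difference in Csf2rb was 1.34, 0.89 and 1.34 on the log2 scale among libraries of replicate number 1, 2 and 3, with no overlap in any of them, although the smaller difference of number 2 had an adjusted p of 0.121 by itself. That of Csf2rb2 was 1.30, 1.00 and 1.22, again with no overlap. The lowest R98S library was clone 13 number 2 at 59641 and the highest WT library was clone 29 number 3 at 54062.

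In total mRNA the beta chains were among the most abundant transcripts. Csf2rb ranked between 2 and 9 by normalised counts among all listed genes in R98S total mRNA and between 10 and 32 in WT. In polysomal RNA it ranked between 3 and 125 in R98S and between 13 and 232 in WT. Csf2rb and Csf2rb2 together took 0.672%, 1.08% and 1.35% (lowest, median, highest) of all normalised counts in R98S total mRNA and 0.335%, 0.457% and 0.575% in WT. Over the 17 total mRNA libraries, the genes whose log2 level was most like that of Csf2rb among 9255 other genes with a mean of at least 100 were Csf2rb2 (Pearson r = 0.985), Anxa11 (r = 0.957) and Rnh1 (r = 0.948). These are descriptions over libraries that share clones and genotype.

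**Figure D2:**
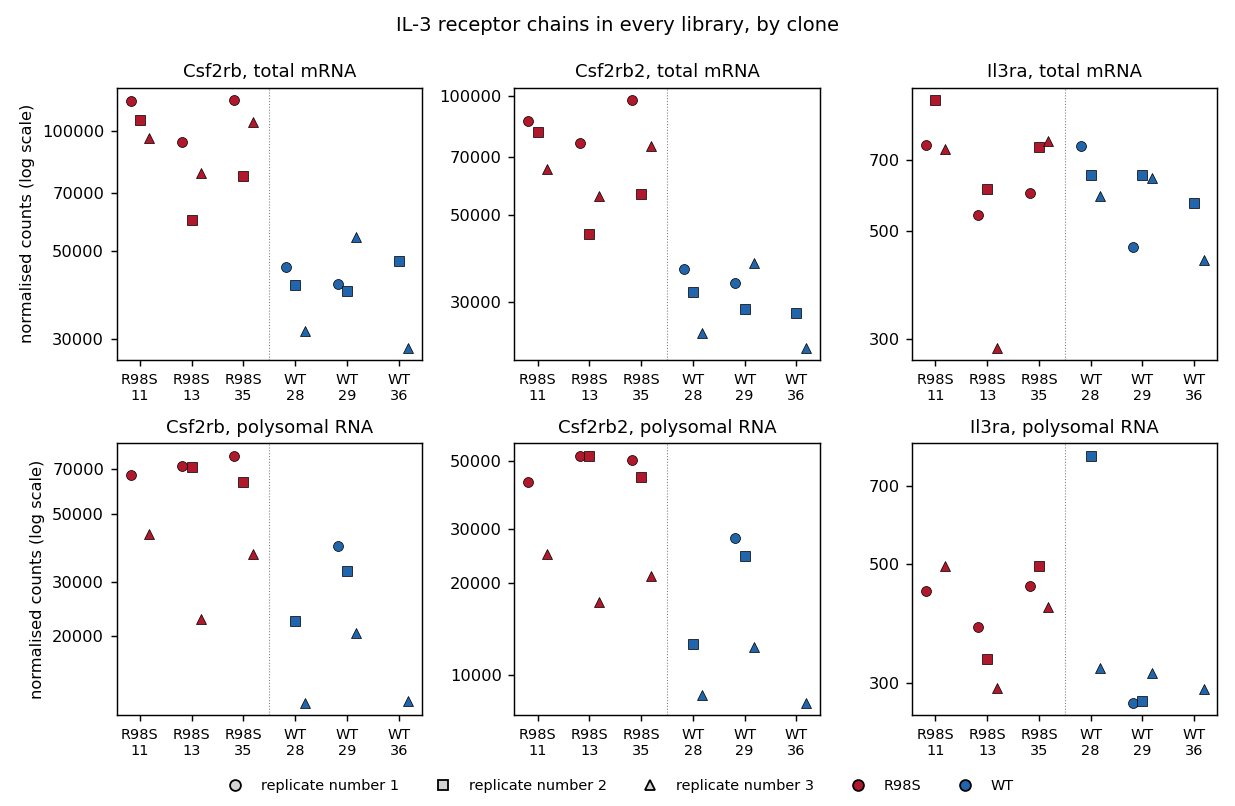
Normalised counts (log scale) of Csf2rb, Csf2rb2 and Il3ra in each library, by clone, in total mRNA (top) and polysomal RNA (bottom); each point is 1 library, its shape the replicate number and its colour the genotype. For both beta chains every R98S total mRNA library lies above every WT one, while the Il3ra libraries of the genotypes overlap in both kinds of RNA.

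Il3ra (ENSMUSG00000068758, chr14:14346275-14356011, plus strand) did not follow the beta chains. It had 288, 739 and 931 normalised counts (lowest, median, highest) in R98S total mRNA and 437, 617 and 749 in WT. The libraries of the genotypes overlapped, with the lowest and the highest value both in R98S. The log2 difference was 0.12 ± 0.18 (SE) with an adjusted p of 0.690. The R98S clones themselves differed, with mean log2 levels of 9.65 in clone 11, 8.84 in clone 13 and 9.45 in clone 35, and without clone 13 the difference was 0.35 with an adjusted p of 0.0696. Per kilobase, the summed beta chains exceeded Il3ra 48.2 to 81.9 times in WT libraries (median 58.0) and 85.3 to 232 times in R98S libraries (median 117) of total mRNA. In polysomal RNA the genotypes overlapped, at 21.3 to 122 times in WT (median 42.9) and 66.7 to 185 times in R98S (median 114). The genes most like Il3ra in log2 level over the 17 libraries were Mbd1 (r = 0.876), Maf1 (r = 0.860) and Ctdsp2 (r = 0.854).

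Il10ra (ENSMUSG00000032089, chr9:45253837-45269149, minus strand), the ligand-binding chain for IL-10, was the called chain that was lower in R98S. It had 26.2, 84.1 and 737 normalised counts (lowest, median, highest) in R98S total mRNA and 81.1, 355 and 2475 in WT. The libraries of the genotypes overlapped and spread widely within a genotype, with the highest in WT clone 28 number 2 at 2475 and in WT clone 28 number 3 at 1384. The R98S level was lower by a log2 difference of -2.00 ± 0.75 (SE) with an adjusted p of 0.0614, and the 3 clone means of R98S (6.64, 7.41 and 5.53 on the log2 scale) lay below those of WT (9.72, 7.52 and 8.26). Single libraries carried the call, which was lost without R98S clone 35 number 1 (adjusted p = 0.107), WT clone 28 number 2 (0.121), WT clone 36 number 2 (0.118), R98S clone 13 number 3 (0.103), R98S clone 35 number 3 (0.104) or WT clone 28 number 3 (0.124). It was also lost without clone 11 (adjusted p = 0.161), clone 35 (0.223) or clone 28 (0.284), without replicate number 1 (0.149), 2 (0.109) or 3 (0.183), and in the 14 cultures that also had a polysomal library (0.158). Over all 16 alternatives that lost the call, the log2 difference ran from -2.24 to -1.29, the latter with clone 28 left out.

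The other chains that were tested in total mRNA did not pass. Il21r (ENSMUSG00000030745, chr7:125603429-125633570, plus strand), the IL-21-binding chain, had 10.7, 32.5 and 54.5 normalised counts in R98S and 8.57, 11.7 and 53.8 in WT, from 319 and 159 reads in all. Its libraries overlapped, the WT values of 23.4 to 53.8 all coming from replicate number 3. The log2 difference was 0.79 ± 0.37 (SE) with an adjusted p of 0.134. With the replicate number as a block it was 0.84 with an adjusted p of 0.0187, and it also passed without WT clone 36 number 3 (1.03, adjusted p = 0.0365), without R98S clone 35 number 1 (0.96, 0.0645), without clone 36 (0.94, 0.0751), without clone 35 (1.00, 0.0869) or without replicate number 3 (1.08, 0.0724).

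Ifngr1 (ENSMUSG00000020009, chr10:19591949-19610229, plus strand), the interferon gamma-binding chain, had 270, 628 and 2989 normalised counts in R98S total mRNA and 219, 397 and 2217 in WT. Replicate number 2 stood above the other numbers in every clone, with 1156 to 2989 in R98S and 692 to 2217 in WT, against 298 to 628 and 219 to 277 in number 1. In number 3 R98S clone 11 was also high, at 2487, beside 270 and 558 in the other R98S clones and 220 to 429 in WT. Ifngr1 differed by 0.71 ± 0.55 (SE) on the log2 scale with an adjusted p of 0.383, and 0.83 with an adjusted p of 0.0854 with the replicate number as a block. The block thus brought the chains called in total mRNA to 5 of 8, beside 38.4% of all genes.

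Il2rg (ENSMUSG00000031304, chrX:101264378-101268255, minus strand) had 302, 486 and 903 normalised counts in R98S total mRNA and 383, 523 and 619 in WT. The R98S libraries spread on both sides of the WT libraries, clone 13 low at 302 to 402 and clone 35 number 1 highest at 903. This gave a log2 difference of 0.027 ± 0.19 (SE) with an adjusted p of 0.933. Part of Il2rg, 728 exonic bases, is also annotated to Gm20489 on the same strand, a gene listed at 0 in every library, so reads there may not have been counted. Il4ra (ENSMUSG00000030748, chr7:125552120-125579474, plus strand), the IL-4-binding chain, had 685, 1019 and 1826 normalised counts in R98S total mRNA and 602, 1020 and 1433 in WT. Of its exonic bases 571 are also annotated to Gm44876 on the other strand, and since the strand setting of the counting is not known, reads there may have been lost or shared. The groups overlapped almost throughout, and the log2 difference was 0.17 ± 0.22 (SE) with an adjusted p of 0.606.

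**Figure D3:**
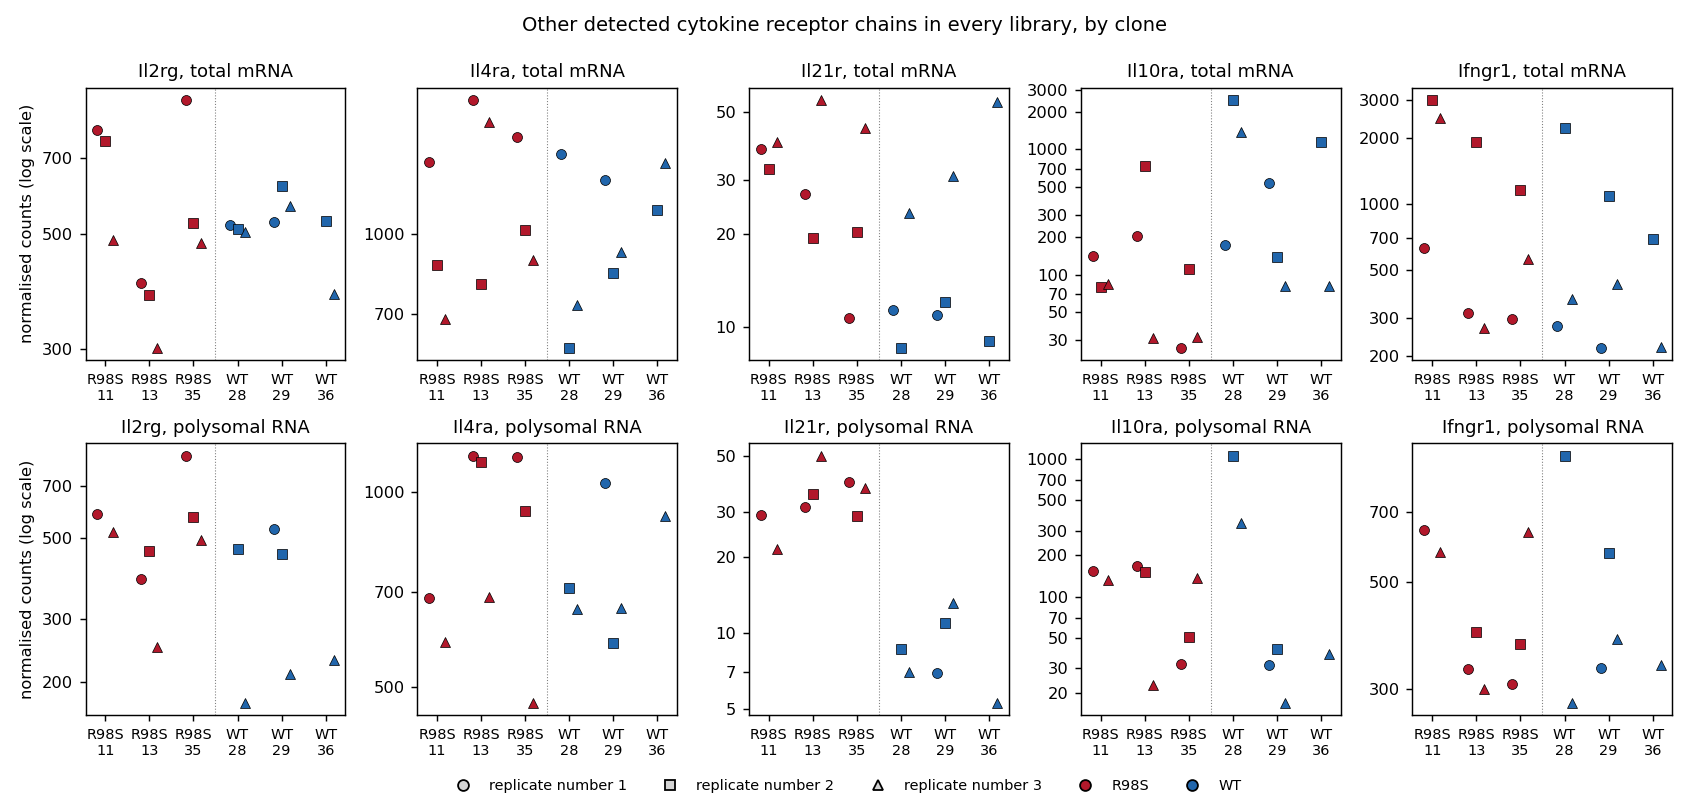
Normalised counts (log scale) of Il2rg, Il4ra, Il21r, Il10ra and Ifngr1 in each library, by clone, in total mRNA (top) and polysomal RNA (bottom); each point is 1 library, its shape the replicate number and its colour the genotype. In polysomal RNA all R98S libraries of Il21r (21.4 to 50.2) lie above all WT libraries (5.29 to 13.2), and the other 4 chains overlap.

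The same comparison in polysomal RNA asked whether the mRNA carried by polysomes differs. These libraries come from the same cultures as the total mRNA, so the comparisons are not independent of each other. Csf2rb, Csf2rb2 and Il21r were higher in R98S and no chain was lower, which makes 3 of 8 tested chains beside 13.5% of all 10707 genes tested. Il21r reached the mean of 10 through R98S alone, the WT mean being 8.68, so counts that hold it are no support for a difference. Without it 2 of 7 were called, and these are the beta chain copies, which share reads and are not independent results. The median log2 difference over the 8 chains, with Il21r and both copies among them, was 0.43, beside -0.021 over all genes.

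Csf2rb had 22728, 65049 and 77238 normalised counts (lowest, median, highest of 8) in R98S polysomal RNA and 12080, 21351 and 39345 (of 6) in WT. The groups overlapped through replicate number 3, in which each genotype was at its lowest, at 22728 to 43101 in R98S and 12080 to 20379 in WT, and within each replicate number every R98S library was above every WT library. The log2 difference was 1.33 ± 0.34 (SE), a 2.51-fold higher level, with an adjusted p of 0.0185, and with the replicate number as a block it was 1.16 ± 0.17 (SE). The call was lost without clone 35 (1.27, adjusted p = 0.101) and without replicate number 1 (1.24, adjusted p = 0.120). Csf2rb2 had 17261, 43347 and 51877 normalised counts in R98S and 8100, 12498 and 28034 in WT, with number 3 again lowest in both genotypes. Its log2 difference was 1.33 ± 0.35 (SE) with an adjusted p of 0.0240, and this call was lost without clone 28 (1.11, adjusted p = 0.122) and without replicate number 1 (1.26, adjusted p = 0.122). Under quantile normalization neither passed, with adjusted p of 0.126 for Csf2rb and 0.175 for Csf2rb2.

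Il21r had the largest difference of the 8 chains in polysomal RNA. It had 21.4, 33.4 and 50.2 normalised counts in R98S and 5.29, 7.85 and 13.2 in WT, from 271 and 58 reads in all. Every R98S library was above every WT library, which held for 1 of 8 chains, beside 4.96% of all genes tested. Since Il21r was tested here only through its R98S level, that share is no support for a difference. The log2 difference was 1.88 ± 0.26 (SE), a 3.68-fold higher level on the log2(value + 1) scale, with an adjusted p of 0.000154. In limma fits within 1 replicate number it was 1.62 in number 2, where it was not called (adjusted p = 0.310), and 1.98 in number 3. With a pseudocount of 5 it was 1.52.

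The remaining chains overlapped between the genotypes in polysomal RNA. Il3ra had 293, 431 and 497 normalised counts in R98S and 275, 303 and 799 in WT, where 5 of 6 libraries lay between 275 and 321 and clone 28 number 2 stood alone at 799. Its log2 difference was 0.23 ± 0.23 (SE) with an adjusted p of 0.660, and without that library 0.47 with an adjusted p of 0.0683. Il2rg had 251, 508 and 847 normalised counts in R98S and 175, 341 and 530 in WT. Its log2 difference was 0.64 ± 0.30 (SE) with an adjusted p of 0.227, and it passed with the replicate number as a block (0.53, adjusted p = 0.0934) and without R98S clone 13 number 3 (0.78, adjusted p = 0.0961). The chains called under the block were thus 4 of 8, beside 30.9% of all genes. This count holds Il21r and both beta chain copies, which share reads, so it is no support for a difference.

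Il4ra had 472, 811 and 1138 normalised counts in R98S polysomal RNA and 583, 686 and 1033 in WT, with a log2 difference of 0.11 ± 0.23 (SE) and an adjusted p of 0.858. Ifngr1 had 299, 383 and 642 in R98S and 281, 359 and 915 in WT, with a log2 difference of -0.019 ± 0.28 (SE) and an adjusted p of 0.984. The high level of replicate number 2 seen in total mRNA was not seen in R98S polysomal RNA, where that number had 372 and 395, while in WT polysomal RNA it had 575 and 915. Il10ra had 22.8, 134 and 168 normalised counts in R98S and 16.8, 40.0 and 1056 in WT. Its WT libraries split by clone, clone 28 at 345 and 1056 and the other clones at 16.8 to 41.7, and its log2 difference was 0.027 ± 0.83 (SE) with an adjusted p of 0.992. Its direction turned with the test, the log2 difference being -1.26 by edgeR and -1.27 by DESeq2 on the recovered reads, neither past the threshold.

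**Figure D4:**
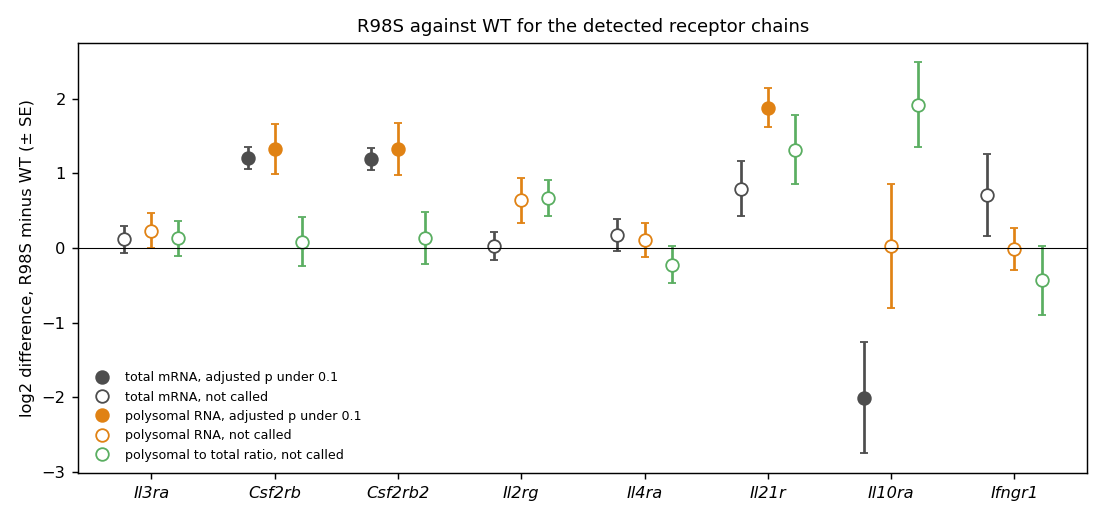
Log2 difference between R98S and WT (points, with bars of 1 SE) for the 8 detected receptor chains in total mRNA, polysomal RNA and the per-culture polysomal to total ratio; filled points passed an adjusted p of 0.1. Csf2rb and Csf2rb2 are filled at 1.20 to 1.33 in both kinds of RNA, Il21r is filled in polysomal RNA, Il10ra is filled at -2.00 in total mRNA and no ratio is filled.

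By clone, the 3 R98S means lay apart from the 3 WT means for Csf2rb, Csf2rb2 and Il10ra in total mRNA, which is 3 of 8 chains beside 40.1% of all genes. In polysomal RNA this held for Csf2rb, Csf2rb2 and Il21r, 3 of 8 beside 27.2%, a count that again holds Il21r. For Il21r the polysomal clone means on the log2 scale were 4.71, 5.30 and 5.17 in R98S and 3.14, 3.47 and 2.65 in WT, where the value of clone 36 is 1 library with 4 reads of Il21r. With 3 clones against 3, an exact permutation test cannot go below p = 0.10. A limma fit on the clone means, in which WT clone 36 is likewise 1 library in polysomal RNA, gave adjusted p of 0.00212 for Csf2rb in total mRNA, and 0.0353 for Csf2rb and 0.0289 for Il21r in polysomal RNA.

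The log2 ratio of polysomal to total level in each of the 14 matched cultures asked whether a chain is loaded on polysomes to a different degree. No chain passed, beside 0.047% of all 10627 genes tested (5 genes). In the limma fit 3 of 8 chains had an unadjusted p under 0.05, beside 6.46% of all genes. With edgeR 3 of 8 did, beside 5.55%, and no chain and no gene was called. With the replicate number as a block none passed either, beside 0.433% of genes. The tables were normalised separately, so a ratio is read only against that of other genes, whose median lay between -0.33 and -0.21 in the R98S cultures and between -0.36 and -0.28 in the WT cultures.

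On average the IL-3 receptor chains sat below that median in both genotypes. The ratio of Csf2rb was -0.79 ± 0.67 (SD, n = 8) in R98S and -0.87 ± 0.57 (SD, n = 6) in WT, a difference of 0.084 ± 0.32 (SE) with an adjusted p of 0.981. That of Csf2rb2 was -0.95 ± 0.70 (SD, n = 8) and -1.08 ± 0.65 (SD, n = 6), and that of Il3ra -0.57 ± 0.30 (SD, n = 8) and -0.70 ± 0.54 (SD, n = 6), with adjusted p of 0.971 and 0.954. The ratio of Csf2rb varied with the replicate number, averaging -1.48 in R98S and -1.33 in WT cultures of number 3 and -0.014 and -0.58 in those of number 2.

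The chains with an unadjusted p under 0.05 in the limma fit were Il10ra, Il21r and Il2rg. For these the R98S clone means lay above the WT clone means, 3 of 8 chains beside 17.1% of all genes. This count again holds Il21r and is no support for a difference. The ratio of Il10ra was -0.13 ± 1.28 (SD, n = 8) in R98S and -2.04 ± 1.07 (SD, n = 6) in WT, a difference of 1.92 ± 0.57 (SE) with an adjusted p of 0.523. The limma difference of Il10ra was -2.00 in total mRNA and 0.027 in polysomal RNA. Its ratio thus rests largely on the total mRNA values, whose call was lost in 16 alternatives. The lowest single culture was WT clone 29 number 1 at -4.05 and the highest was R98S clone 35 number 3 at 2.07. With clone as a random effect the adjusted p of Il10ra was 0.0575, while among cultures of number 2 alone the difference turned to -0.23. The ratio of Il21r differed by 1.32 ± 0.47 (SE, adjusted p = 0.607), and rested on few reads. That of Il2rg was -0.039 ± 0.23 (SD, n = 8) in R98S and -0.71 ± 0.64 (SD, n = 6) in WT (adjusted p = 0.610), where WT cultures of number 3 were lowest at -1.52 and -1.42. With a replicate, clone or library left out, the differences ran from 1.30 to 2.73 for Il10ra, 0.83 to 1.79 for Il21r and 0.15 to 0.91 for Il2rg. Ifngr1 had ratios of -2.28 to 0.19 in R98S and -1.28 to 0.62 in WT (adjusted p = 0.936), and Il4ra of -1.27 to 0.47 and -0.58 to 0.24 (adjusted p = 0.936).

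**Figure D5:**
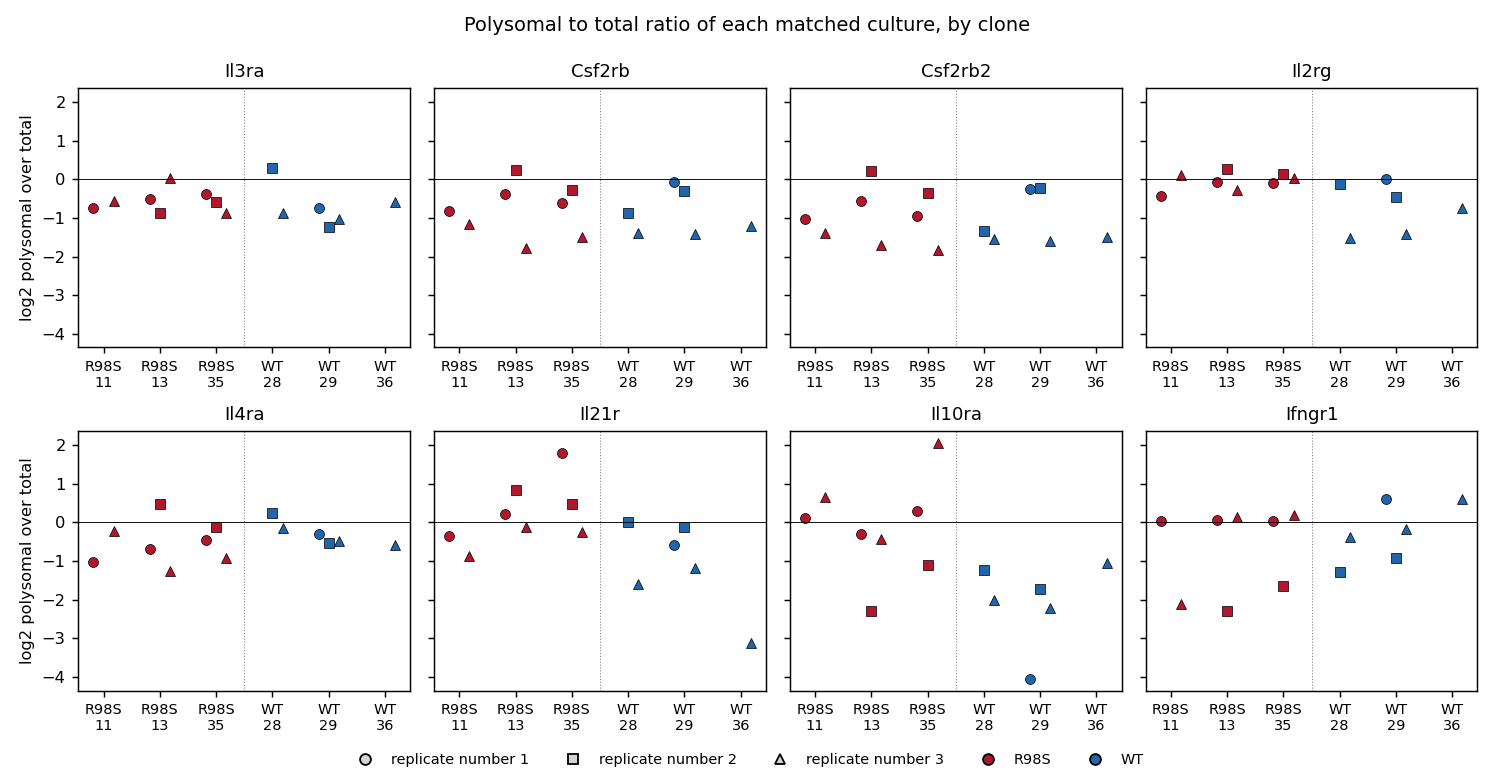
Log2 ratio of polysomal to total normalised counts for the 8 detected receptor chains in each of the 14 matched cultures, by clone; each point is 1 culture, its shape the replicate number and its colour the genotype. The Csf2rb and Csf2rb2 ratios of number 3 are low in both genotypes, and the Il10ra ratios of WT all lie below -1.06 while those of R98S run from -2.29 to 2.07.

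Promoter sequences from RefSeq (250 bases before to 50 after the gene start) were matched by symbol for 8 of the 10 genes and are shown for 2 chains that were called, Csf2rb2 and Il21r, and for Il3ra, the partner of the beta chains, which was not. Capitals mark matches on either strand to TTCNNNGAA (the palindrome bound by STAT factors), GATAA (GATA factors) and AGGAAG (ETS factors), none of which overlap one another here. Of all 32851 promoters of this length, 8.3% hold the first, 25.4% the second and 35.4% the third. The windows are chr15:78305672-78305971 (minus strand) for Csf2rb2, chr7:125603179-125603478 (plus strand) for Il21r and chr14:14346245-14346544 (plus strand) for Il3ra, in GRCm38.p6.
Csf2rb2: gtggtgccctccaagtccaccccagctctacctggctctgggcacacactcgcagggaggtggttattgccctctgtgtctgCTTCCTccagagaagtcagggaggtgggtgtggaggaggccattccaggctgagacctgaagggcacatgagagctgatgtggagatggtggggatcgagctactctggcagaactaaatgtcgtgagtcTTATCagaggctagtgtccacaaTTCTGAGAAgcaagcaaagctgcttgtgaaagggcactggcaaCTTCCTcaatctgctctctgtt
Il21r: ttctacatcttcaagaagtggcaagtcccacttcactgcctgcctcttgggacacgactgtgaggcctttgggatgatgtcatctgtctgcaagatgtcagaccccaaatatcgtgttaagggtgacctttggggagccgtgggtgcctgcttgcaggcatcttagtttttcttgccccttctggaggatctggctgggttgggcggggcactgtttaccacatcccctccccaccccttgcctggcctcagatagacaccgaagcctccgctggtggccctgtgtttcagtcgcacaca
Il3ra: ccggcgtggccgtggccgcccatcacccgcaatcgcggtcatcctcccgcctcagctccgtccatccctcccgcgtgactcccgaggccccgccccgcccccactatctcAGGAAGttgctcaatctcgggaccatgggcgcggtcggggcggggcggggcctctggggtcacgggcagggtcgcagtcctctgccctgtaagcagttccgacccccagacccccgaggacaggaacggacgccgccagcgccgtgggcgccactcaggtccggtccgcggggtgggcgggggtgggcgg
The Csf2rb2 window holds 1 match to the STAT-type letters, 1 to the GATA letters and 2 to the ETS letters, that of Il3ra holds 1 to the ETS letters, and that of Il21r holds none. A match is a description of the sequence and does not show binding. By the GENCODE positions the Il3ra gene starts at chr14:14346275, near the beginning of its window. Most of that window thus lies within the gene.

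Other cytokine receptor chains were read from a list of 49, of which 19 reached the mean of 10 in total mRNA and 18 in polysomal RNA. In total mRNA 2 were higher and 2 lower in R98S, and in polysomal RNA none was higher and 2 were lower, with median log2 differences of 0.027 and 0.17. These shares of called chains, 4 of 19 and 2 of 18, stand beside 30.3% and 13.5% of all genes. Il2rb, the beta chain that joins Il2rg in the IL-2 and IL-15 receptors, was lower in R98S, with log2 differences of -1.21 ± 0.37 (SE) in total mRNA (adjusted p = 0.0246) and -1.13 ± 0.27 (SE) in polysomal RNA (adjusted p = 0.0146). Ifnar2, a chain of the type I interferon receptor, was also lower, at -0.39 (adjusted p = 0.0334) and -0.45 (adjusted p = 0.0601). In total mRNA alone, Il11ra1, the IL-11-binding chain, passed at 1.11 (adjusted p = 0.00274) and Crlf2, the TSLP-binding chain, at 0.49 (adjusted p = 0.0338). Their polysomal differences were 1.14 (adjusted p = 0.104, or 0.0523 with the replicate number as a block) and 0.52 (adjusted p = 0.435). Il11ra1 had a WT median of 5.62 in polysomal RNA and reached the mean of 10 there through R98S.

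Transcripts of most of the ligands that give these receptors their names were at or near 0. Il3, Il7 and Il21 had no read in any library, and Csf2, Ifng and Il10 did not exceed 1.33 normalised counts. Il2 reached 7.60 in 1 library, and Il4 had medians of 15.9 in R98S and 9.65 in WT total mRNA. Among other ligands that use one of these chains, Il15, which signals through Il2rb and Il2rg, had medians of 246 in R98S and 519.8 in WT total mRNA and 263 and 489.8 in polysomal RNA. Its libraries overlapped in both, and it was lower in R98S by a log2 difference of -0.87 ± 0.34 (SE, adjusted p = 0.0714) and of -0.90 ± 0.28 (SE, adjusted p = 0.0567). It was named after its values were seen, as were Il13, an Il4ra ligand that reached 54.8 in 1 polysomal library, and Tslp, an Il7r ligand with a median of 24.7 in WT total mRNA. Of 26 ligand genes, 9 were tested in total mRNA, with 1 higher and 3 lower in R98S, and 10 in polysomal RNA, with 4 higher and 1 lower, beside 30.3% and 13.5% of all genes. Of those 4, Il4 and Il13 reached the mean of 10 in polysomal RNA through R98S alone, their WT libraries not exceeding 8.05 and 3.97, so the count is no support for a difference. The median log2 differences were 0.22 and 0.49. The smallest adjusted p values were those of Lif in polysomal RNA (log2 difference 1.93 ± 0.29 SE, adjusted p = 0.000352), Osm in polysomal RNA (1.84 ± 0.39 SE, adjusted p = 0.00618) and Il6 in total mRNA (1.03 ± 0.25 SE, adjusted p = 0.0069), each a cytokine of the gp130 family. Lif and Osm did not pass in total mRNA (adjusted p = 0.191 and 0.452), nor did Il6 in polysomal RNA (0.475), although it did so under the replicate block (0.0402).

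Genes that act below these receptors (JAK kinases, STAT factors, adaptors, feedback inhibitors and survival targets) were read from a list of 32, of which 30 were tested. In total mRNA 6 were higher and 5 lower in R98S, in polysomal RNA 3 were higher and 1 lower, and none passed in the ratio, which makes 11 and 4 of 30 beside 30.3% and 13.5% of all genes. With the replicate number as a block 10 of 30 passed in polysomal RNA, beside 30.9%. The list had median log2 differences of -0.066, 0.15 and 0.11. Socs1, a feedback inhibitor of JAK kinases, was higher in polysomal RNA by 2.00 ± 0.34 (SE, adjusted p = 0.00116), with 772 to 1466 normalised counts in R98S and 68.8 to 451 in WT, while in total mRNA the difference was 0.62 ± 0.48 (SE, adjusted p = 0.388). Mcl1, a survival factor of the Bcl-2 family, was lower in total mRNA, with a log2 difference of -0.39 ± 0.10 (SE, adjusted p = 0.00674), with 2587 to 4402 normalised counts in R98S and 3710 to 5085 in WT. In polysomal RNA the Mcl1 difference was -0.32 (adjusted p = 0.174, or 0.0663 with the replicate number as a block). Grb2, the adaptor that links receptors to Ras, was higher by 0.41 (adjusted p = 0.032) in total mRNA and 0.57 (adjusted p = 0.0521) in polysomal RNA.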

How the data were processed

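Total mRNA (17 libraries) and polysomal RNA (14 libraries) of Ba/F3 cultures were analysed. The study prepared libraries with a stranded mRNA kit, removed rRNA and tRNA reads with Bowtie2, aligned to mm10 with TopHat2 2.0.11, kept alignments of mapping quality of at least 10 and counted reads on exons; the strand setting is not given in the sources used here. The study left out 1 WT clone 36 total mRNA library that clustered with R98S libraries, and that library was not analysed here. The deposited values are a normalised signal: read counts that the authors divided by DESeq2 size factors, separately for each table. Dividing by the smallest value of each library gave whole reads for all values above 0 (tolerance 0.01).

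Here log2(value + 1) of genes with a mean of at least 10 was fitted with limma 3.58.1 (R 4.3.3, trended eBayes), R98S against WT, with Benjamini-Hochberg adjustment over all genes and calls at an adjusted p under 0.1. The ratio is log2 polysomal minus log2 total of 1 culture; the Babel test named by the study was not used. Alternatives were edgeR 4.0.16 and DESeq2 1.42.0 on recovered reads, other scalings, filters and pseudocounts, clone-level fits and fits leaving out libraries, clones or numbers. Fits within 1 replicate number were added after the data were seen. Fits were tested on simulated data. Lengths and positions are from GENCODE M21 (GRCm38, the same build as mm10), and the coding sequences were aligned with Biopython 1.88.

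Replicate numbers come from the labels, and same-numbered R98S and WT libraries deviated together: correlations across genes of the mean deviation per number were 0.48 to 0.62 in total mRNA, 0.67 to 0.87 in polysomal RNA and 0.54 to 0.81 in the ratio. Blocked values are therefore given where they change the call of a receptor chain among the 10.

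Named genes were all 10 receptor chains, other receptor chains called in either table, up to 3 ligands and 3 signalling genes of smallest adjusted p, the ligands of the 10 by level, and the 3 genes most like Il3ra and Csf2rb; markers and other ligands were named after their values were seen. The 10 genes and all lists were chosen with earlier results of these data known. A receptor chain and a lymphoid marker of these lists are not reported here and are not in the counts of their lists. Totals per library run from 8831180 to 22059792 reads; limits from counts of 0 cover counting error only.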

Additional observations from a re-analysis of the deposited data

Results flagged for a closer look

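Among 48 groups of libraries or cultures examined for the 8 detected receptor chains, 3 held a library far from the others of its group by Dixon's test; chance alone gives about 1 in 20. In total mRNA, Il3ra was lowest in R98S clone 13 number 3, at 288 normalised counts, with a gap to the next library of 0.537 of the range of 9 libraries on the log2 scale. In total mRNA, Il2rg was lowest in WT clone 36 number 3, at 383 normalised counts, with a gap of 0.568 of the range of 8 libraries. In polysomal RNA, Il3ra was highest in WT clone 28 number 2, at 799 normalised counts, with a gap of 0.856 of the range of 6 libraries, and leaving this library out brought the log2 difference of Il3ra from 0.23 to 0.47.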

How the results depend on the processing

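Csf2rb2 in total mRNA kept its direction and its call in all 41 alternatives run, with log2 differences of 1.00 to 1.33, and Csf2rb in 41 of 42. Il21r in polysomal RNA kept its direction in all 36 alternatives and its call in 35, the exception being replicate number 2 alone. Il21r passed the main filter there only through its R98S level, and under the higher filter on the mean it was not tested. The counts of alternatives for Il21r are thus no independent support for a difference. Fits within 1 replicate number were chosen after the data were seen, and number 1 of polysomal RNA, with 1 WT library, could not be fitted. With the replicate block 5 chains were called in total mRNA, beside 38.4% of all genes, and within number 2 it was 1, beside 241 of 11133 genes. In polysomal RNA 1 chain was called under quantile normalization, beside 1407 of 10707 genes. In the ratio 1 chain was called with clone as a random effect, beside 143 of 10627 genes. With a replicate, clone or library left out, the chains called in polysomal RNA ran from 1 to 4, and all genes called from 608 to 2037 of 10707. The causes were not tested.

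Each log2 difference that turned direction belonged to a comparison in which that chain was not called in the main fit. Some of these chains were called in another comparison. In total mRNA Il3ra gave -0.0075 within number 3, and Il2rg gave -0.029 in the 14 matched cultures, -0.052 within number 2 and -0.21 within number 3. In polysomal RNA Il3ra gave -0.21 within number 2, Il4ra -0.36 within number 3 and Ifngr1 0.027 with the replicate block, 0.091 on clone means and 0.53 within number 3. There Il10ra gave -0.012 with a pseudocount of 5, -0.15 under quantile normalization, -1.26 with edgeR, -1.27 with DESeq2 and -1.27 within number 2. In the ratio Csf2rb gave -0.018 with the replicate block and -0.15 within number 3, Csf2rb2 -0.086 within number 3, and within number 2 Il3ra gave -0.26, Il4ra 0.32 and Il10ra -0.23.

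Leaving out a replicate, clone or library moved these chains from -0.053 to 0.35 (Il3ra) and from -0.14 to 0.30 (Il2rg) in total mRNA. In polysomal RNA the ranges were -0.045 to 0.50 for Il3ra, -0.11 to 0.38 for Il4ra, -1.50 to 1.45 for Il10ra and -0.50 to 0.41 for Ifngr1. In the ratio they were -0.18 to 0.33 for Il3ra, -0.065 to 0.37 for Csf2rb and -0.046 to 0.51 for Csf2rb2. Without replicate number 1, 1 chain was called in polysomal RNA, beside 608 of 10707 genes. Among the 8 tested chains, Il21r had the fewest reads, with 58 over the WT polysomal libraries.

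Over all genes, 3369 were called in total mRNA, 3308 with edgeR and 3776 with DESeq2. In polysomal RNA 1449 were called, 1481 with edgeR and 2202 with DESeq2, 3307 with the replicate block and 751 on clone means. In the ratio 5 were called, 46 with the replicate block, 143 with clone as a random effect and 0 with edgeR. Per kilobase of the longest transcript, WT total mRNA medians were 267 for Il3ra and 313 for Il2rg. With the replicate block, the share of all genes called went from 30.3% to 38.4% in total mRNA and from 13.5% to 30.9% in polysomal RNA. Beside these shares, ligands called went from 4 to 5 in total mRNA and from 5 to 7 in polysomal RNA. Signalling genes went from 11 to 13 in total mRNA, T lymphoid markers from 2 to 3 in total mRNA, and myeloid and mast cell markers from 3 to 4 in polysomal RNA. In the ratio the block called 1 of 2 B lymphoid markers (Cd79b) and 1 of 2 T lymphoid markers (Cd3d), beside 0.433% of all genes.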

Other observations

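The ratio of Csf2rb to Csf2rb2 counts varied little among total mRNA libraries, at 1.22, 1.36 and 1.46 (lowest, median, highest) in R98S and 1.23, 1.27 and 1.67 in WT, where WT clone 36 number 2 gave the highest value. In polysomal RNA it was 1.32, 1.48 and 1.76 in R98S and 1.33, 1.46 and 1.77 in WT. Because the copies share sequence, the ratio depends on how shared reads were assigned.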
